A study of Mus musculus with 24 samples.

Results

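The 2 peak lists described here record open chromatin in Cux2 neurons at P1 and at P3. ATAC-seq uses a transposase to cut accessible DNA and tag the ends for sequencing, and a peak is a stretch where such cuts pile up. Peaks were taken from the P1 and the P3 list on chromosomes 1 to 19 and X. A P1 peak without a 1 bp overlap in the P3 list was counted as lost, a P3 peak without such an overlap at P1 as gained, and the others as kept. The lists held 21747 and 29298 peaks, together 51045 of the 292908 peaks on these chromosomes in all 12 lists of the series. The series followed Cux2-lineage callosal projection neurons (Cux2 CPNs) and Tle4-lineage corticothalamic projection neurons (Tle4 CThPNs) from E18.5 to P48, with 2 replicates per class and age.

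Both groups carried the same genotype, Cux2-CreERT2:Ai14, and differed by label only in age. The labels give the strain as C57BL/6, and the study's methods call the background mixed. Their mothers had received 4-Hydroxytamoxifen during pregnancy, which lets the Cre recombinase enter the nucleus and switch on the tdTomato reporter of Ai14 in cells that use the Cux2 gene. Labelled neurons were sorted by fluorescence from somatosensory and motor cortex, and each library pooled several male and female animals. The Cux2 line also marks a small number of interneurons, so the sorted cells were not pyramidal neurons alone. Each list was called on the pooled replicates, which leaves 1 list per age and no value per library. A difference between the lists therefore has no replicate check, and no test was run.

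Callosal projection neurons of the upper cortical layers connect the hemispheres. During the first days after birth, neurons of this kind finish migrating, extend axons across the midline and begin to form synapses. Open chromatin marks promoters, where transcription starts, and distal elements such as enhancers, which bind transcription factors and act on genes over long distances. Promoters of widely used genes tend to stay open, whereas distal elements change more readily as a neuron differentiates.

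The sequences below come from the lost and gained sites of highest fold enrichment and from a site open at both ages. They run from 100 bases before to 100 bases after the summit and were read from the plus strand of NCBIM37 (mm9), for the strongest lost and gained peaks outside promoters by fold enrichment and for the strongest kept one. Capitals mark matches to the 18 motifs searched (overlapping matches run together), and a sequence without capitals held none of them.
Lost, first in order, intergenic, 15096 bp from the nearest protein-coding TSS (1110021J02Rik), chr17:29868953-29869153: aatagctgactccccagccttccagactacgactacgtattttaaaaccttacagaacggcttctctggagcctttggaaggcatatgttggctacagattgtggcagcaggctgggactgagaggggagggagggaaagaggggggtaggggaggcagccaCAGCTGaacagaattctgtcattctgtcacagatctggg
Lost, second in order, intergenic, 4462 bp from Gm10963, chr4:103250133-103250333: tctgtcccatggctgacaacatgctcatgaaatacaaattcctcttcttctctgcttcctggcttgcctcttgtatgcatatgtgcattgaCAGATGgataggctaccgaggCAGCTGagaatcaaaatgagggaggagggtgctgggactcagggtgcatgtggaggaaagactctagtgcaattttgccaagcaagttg
Gained, first in order, intron of Cpa6, chr1:10420055-10420255: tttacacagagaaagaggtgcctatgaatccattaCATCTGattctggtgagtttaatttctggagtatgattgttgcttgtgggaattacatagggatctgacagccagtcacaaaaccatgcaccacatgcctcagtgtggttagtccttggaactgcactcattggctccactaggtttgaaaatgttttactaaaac
Gained, second in order, intergenic, 8973 bp from Lgals8, chr13:12566084-12566284: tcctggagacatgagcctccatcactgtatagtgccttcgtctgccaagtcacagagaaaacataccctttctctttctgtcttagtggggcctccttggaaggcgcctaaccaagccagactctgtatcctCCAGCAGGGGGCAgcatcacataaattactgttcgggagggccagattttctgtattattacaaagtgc
Kept, first in order, intergenic, 13267 bp from Gm5705, chr1:164545747-164545947: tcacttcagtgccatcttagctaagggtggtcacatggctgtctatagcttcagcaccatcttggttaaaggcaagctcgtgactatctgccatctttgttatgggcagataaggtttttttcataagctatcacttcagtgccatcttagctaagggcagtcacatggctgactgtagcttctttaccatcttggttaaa
The first lost site held the E-box CAGCTG, the second lost site both E-boxes searched (CAGATG and CAGCTG), and the first gained site CAGATG on the other strand. E-boxes are bound by basic helix-loop-helix factors such as the neurogenic NEUROD proteins. The second gained site matched the motif of CTCF, a factor that anchors chromatin loops.

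A further 4 sequences belong to genes described below and were chosen after their values had been seen. They are the strongest changed peaks outside promoters assigned to Dlg2 and Cntnap2 (gained) and to Cux1 and Abr (lost).
Gained, intron of Dlg2, chr7:98375037-98375237: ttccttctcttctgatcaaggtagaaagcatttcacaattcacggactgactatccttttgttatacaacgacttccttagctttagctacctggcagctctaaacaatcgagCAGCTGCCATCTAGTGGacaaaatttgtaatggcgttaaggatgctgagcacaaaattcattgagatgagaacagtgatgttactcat
Gained, intron of Cntnap2, chr6:46946060-46946260: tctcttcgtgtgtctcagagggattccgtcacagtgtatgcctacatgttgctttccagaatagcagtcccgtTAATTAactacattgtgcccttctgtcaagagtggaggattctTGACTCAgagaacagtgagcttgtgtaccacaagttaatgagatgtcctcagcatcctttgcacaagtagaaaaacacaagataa
Lost, intron of Cux1, chr5:136792086-136792286: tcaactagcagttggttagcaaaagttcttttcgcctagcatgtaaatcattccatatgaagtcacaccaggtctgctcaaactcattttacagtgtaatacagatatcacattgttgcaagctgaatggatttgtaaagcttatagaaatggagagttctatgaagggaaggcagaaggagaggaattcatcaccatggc
Lost, intron of Abr, chr11:76338579-76338779: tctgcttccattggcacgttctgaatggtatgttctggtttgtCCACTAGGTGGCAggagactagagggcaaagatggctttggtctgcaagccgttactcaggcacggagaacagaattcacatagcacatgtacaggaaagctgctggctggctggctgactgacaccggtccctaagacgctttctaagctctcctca
The Dlg2 site held an E-box that runs into a CTCF match, and the Cntnap2 site a homeodomain TAATTA and an AP-1 site, the motif bound by FOS and JUN proteins. A match gives the letters of a sequence and is not a bound site.

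From P1 to P3, 19067 of the 21747 P1 peaks were kept (87.7%, 95% Wilson interval 87.2 to 88.1%) and 2680 were lost (12.3%, 11.9 to 12.8%). In the P3 list, 10316 of 29298 peaks were gained (35.2%, 34.7 to 35.8%) and 18982 overlapped a P1 peak. Intervals cover counting error only. In pooled cells, a site open in more cells and a site more open in the same cells cannot be told apart. The 2 lists shared 9.88 Mb of open sequence, a Jaccard index of 0.485 over bases. Few calls depended on the edge of the overlap rule, since 1 kept P1 peak overlapped by under 100 bp and 7 lost peaks lay within 100 bp of a P3 peak.

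The excess of gained over lost peaks changed with the length of the lists. When the P3 list was reduced to its 21747 strongest peaks by −log10 p, 4907 P1 peaks were lost (22.6%) and 5012 P3 peaks were gained (23.0%). Kept peaks pair nearly 1 to 1, so lists of equal length give nearly equal losses and gains by construction. These values therefore measure the turnover and not its direction, and the direction in the full lists cannot be told apart from their lengths. A common lower limit of −log10 p did not have this effect, because the lists ended at almost the same value, 13.4 at P1 and 13.8 at P3, and under it 11.4% were lost and 36.8% gained. A reciprocal overlap of 50% raised the lost peaks to 4502 (20.7%) and the gained share to 41.1%. The P1 list was the shortest of the 6 Cux2 lists. Its peak names ran to call number 241179, of which 9.02% were retained, against 16.0% of 182767 at P3 and 21.6% of 157437 at E18.5.

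Sites open before and after both ages gave the same picture. Of 18269 P7 peaks that overlapped an E18.5 peak of Cux2 CPNs, 80.5% had a P1 peak and 90.0% a P3 peak, and 12.4% were open at P3 and not at P1 against 2.91% the other way. With lists of equal length the shares were 80.5% and 80.9%, and the 1-sided sets 8.02% and 7.63%. In the full lists 91.6% of the promoter sites among them had a peak at P1 and 95.9% at P3, and 71.5% and 85.3% of the sites outside promoters. At equal length the order at promoters turned around, to 91.6% at P1 and 90.8% at P3, and outside them the shares were 71.5% and 72.9%. Only the P3 list was shortened, so its shares could only fall.

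The other steps were read in the same way. From E18.5 to P1, where the list went from 33988 to 21747 peaks, 44.0% of peaks were lost and 12.6% gained, and at equal length, where the shares must nearly match, 26.8% and 26.6%. From P3 to P7, with lists of nearly equal length, the shares were 30.1% and 30.9%. In Tle4 CThPNs from P1 to P3, 9.73% were lost and 22.1% gained, and at equal length 15.1% and 15.7%. The equal lengths differed between steps (21747 peaks up to P3, 29298 from P3 to P7 and 19508 in Tle4 CThPNs). At these lengths the P1 to P3 shares of Cux2 CPNs lay below those from E18.5 to P1 and from P3 to P7, the other Cux2 steps computed, and above those of the same interval in Tle4 CThPNs, a difference that was not tested.

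Lost and gained peaks lay mostly away from promoters. A promoter peak came within 1 kb of an annotated TSS. Such peaks made up 44.2% of kept P1 peaks (43.5 to 44.9%), 19.3% of lost peaks (17.8 to 20.8%) and 14.5% of gained peaks (13.8 to 15.2%). Introns held 37.7% of lost and 36.4% of gained peaks against 23.1% of kept ones, and intergenic sequence held 40.9%, 47.0% and 31.2%. Exons outside promoters held 2.13% of lost, 2.12% of gained and 1.55% of kept peaks. The sets were also called anew after each list was cut at its median fold enrichment. Promoters then held 33.2% of 1867 lost, 17.3% of 5646 gained and 57.9% of 9016 kept peaks. Peaks whose partner fell below the cut counted as changed there. The median distance from the summit to a protein-coding TSS was 6706 bp for kept P1 peaks, 23837 bp for lost and 32919 bp for gained peaks.

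**Figure D1:**
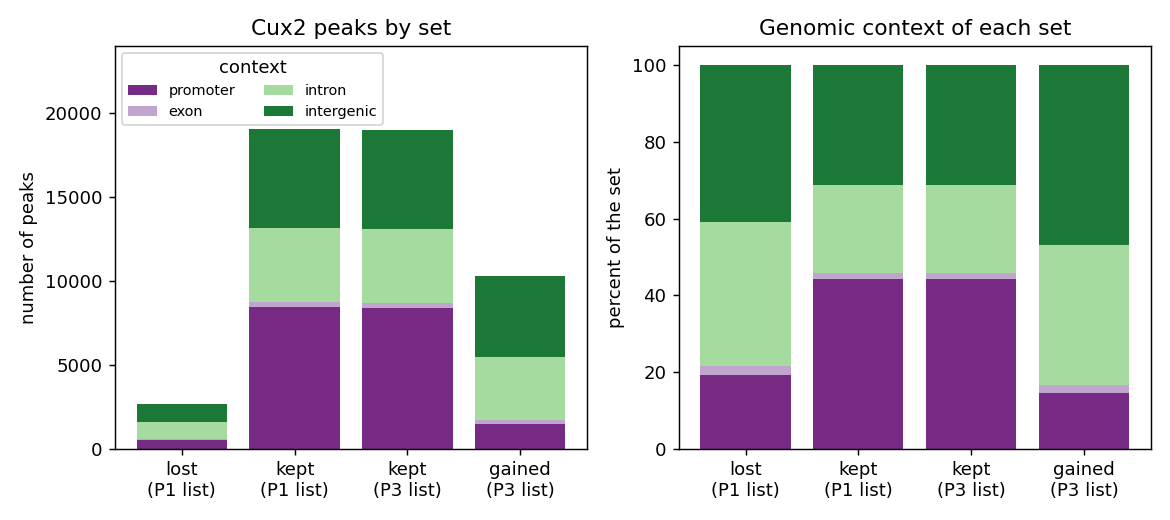
Number (left) and percent (right) of lost, kept and gained Cux2 peaks by genomic context; the kept set is drawn from each list. Promoters made up 44.2% of kept peaks and fell to 19.3% of the lost and 14.5% of the gained set.

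Changed peaks were weak and narrow. The median fold enrichment at the summit, the peak caller's ratio over background, was 8.99 for lost and 11.1 for kept P1 peaks, and 8.65 for gained and 10.7 for kept P3 peaks. Median widths were 363 bp for lost, 526 bp for kept P1, 489 bp for gained and 659 bp for kept P3 peaks. Each list was ordered by −log10 p and divided into 10 bins of equal size, with bin 1 the strongest. In the P1 list the lost share rose from 0 of 2174 peaks in bin 1, which allows a share of up to 0.138%, to 35.8% (33.8 to 37.8%) in bin 10. In the P3 list the gained share rose from 0 of 2929 peaks in bin 1, which allows up to 0.102%, to 76.3% (74.7 to 77.8%) in bin 10. Peaks of equal strength still differed by context. In bin 10, 19% of lost against 23.0% of kept P1 peaks were at promoters, and 14.9% of gained against 28.3% of kept P3 peaks. In bin 5 the shares were 25.2% and 34.9% at P1, and 11% and 32.2% at P3.

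**Figure D2:**
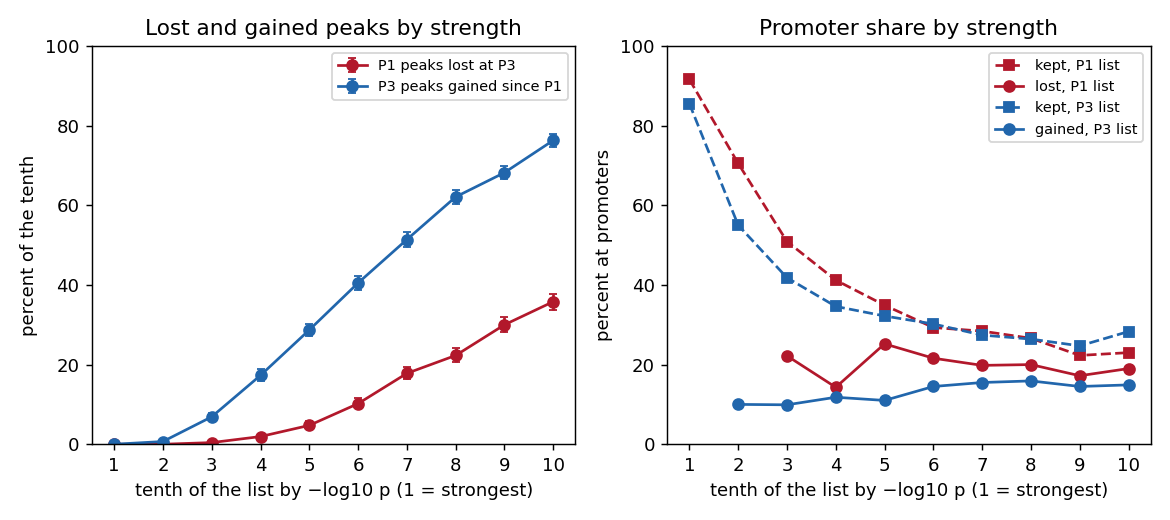
Left, percent of P1 peaks lost and of P3 peaks gained in each of 10 bins of a list ordered by −log10 p, with 95% Wilson intervals; right, percent of changed (solid) and kept (dashed) peaks at promoters in each bin. Both shares on the left rise to the weakest bin (35.8% lost, 76.3% gained), and on the right every solid line lies under the dashed line of the same list.

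The fold enrichment of kept peaks was correlated between the ages. Across the 19067 kept P1 peaks, each paired with the P3 peak of largest overlap, Spearman's rho of fold enrichment was 0.737, given as a description because peaks of 1 list share its libraries. The median distance between paired summits was 23 bp. Percentile rank within a list changed by a median of 2.92 points (quartiles −5.64 and 16.9). The P3 list holds more peaks, and gained peaks had a median rank of 31.5 in it, so kept peaks can move up in rank without a change in signal.

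Lost peaks were more often present at E18.5 than gained peaks were, and less often at P7, P21 and P48. A peak was present in another list when it overlapped a peak there. Of lost peaks, 67.6% were present in Cux2 CPNs at E18.5 and 29.7% at P7. Of gained peaks, 43.5% were present at E18.5 and 49.0% at P7, and of kept P1 peaks 90.2% and 81.2%. The P21 list held 16.6% of lost, 27.2% of gained and 51.3% of kept peaks, and the P48 list 25.9%, 32.8% and 64.1%. The E18.5 list held 33988 peaks and the P7 list 29590, so the earlier list was the longer. Presence was also read after each list was cut at its median fold enrichment and the sets were called anew. Of the 1867 P1 peaks then lost, 66.7% were present at P7, and of the 5646 gained peaks 66.4% at E18.5. These sets include peaks whose partner in the other list fell below the cut.

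The contrast was also read among peaks of matched strength. In bin 10 of the P1 list, 28.0% of lost and 61.3% of kept peaks were present at P7, whereas 58.7% and 69.2% were present at E18.5. In bin 10 of the P3 list, 35.7% of gained and 75.4% of kept peaks were present at E18.5, and 36.4% and 44.6% at P7. In bin 3 of that list, 53.0% of gained and 93.9% of kept peaks were present at E18.5, and 79.7% and 90.2% at P7. In these bins the gap between lost and kept peaks was wider at P7, and the gap between gained and kept peaks wider at E18.5. The kept sets were chosen for presence at the neighbouring age, which enters these gaps.

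The patterns over ages split each set. Of the 2680 lost peaks, 1274 (47.5%) were present at E18.5 and absent at P7, and 1001 (37.4%) were present at E18.5 and in no later Cux2 list. Another 538 (20.1%) were present at both E18.5 and P7, so that they were missing at P3 between ages that held them. Of the 10316 gained peaks, 2788 (27.0%) were present at P7 and absent at E18.5, and 1024 (9.93%) were present at P7, P21 and P48 and absent at E18.5. A further 2270 (22.0%) were present at E18.5 and P7 and missing at P1. No other list of the series held 430 lost (16.0%) and 2204 gained peaks (21.4%), against 1.93% of kept P1 peaks. Of the gained peaks, 20.1% of those present at both E18.5 and P7 were at promoters, against 8.93% of those present at P7 and absent at E18.5.

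In Tle4 CThPNs of the same age, the P1 list held 16.6% of lost and 58.5% of kept P1 peaks, and the P3 list 20.4% of gained and 64.6% of kept P3 peaks. The Tle4 lists were shorter at both ages, and bin 10 had 14.3% of lost against 27.4% of kept peaks at P1, and 15.3% of gained against 33.7% of kept peaks at P3.

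**Figure D3:**
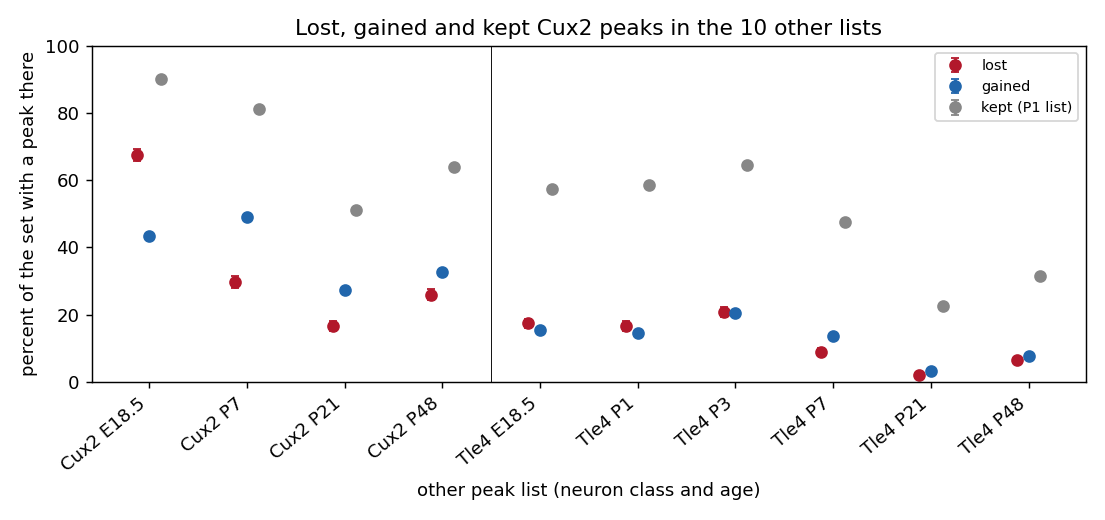
Percent of lost, gained and kept Cux2 peaks that overlap a peak of each other list, 4 of Cux2 CPNs and 6 of Tle4 CThPNs, with 95% Wilson intervals. Lost peaks lie above gained peaks at E18.5 (67.6% and 43.5%) and below them at P7, P21 and P48, and kept peaks lie above both in every list.

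The lost peaks with the highest fold enrichment were all present at E18.5. Outside promoters they lay on chromosome 17 at 29868822-29869182 (fold enrichment 14.9), chromosome 4 at 103249811-103250413 (14.7), chromosome 11 at 20813996-20814402 (14.4) and chromosome 14 at 63158757-63159054 (13.9), all intergenic, and on chromosome 3 at 53318512-53319078 (13.9), in an exon of Frem2 annotated as UTR. The fold enrichment of the highest lost peaks thus fell between the 77.8th and 82.8th percentile of the P1 list. Of these 5, 3 were present again at P7. At promoters the highest were those of Letmd1 (15.4), Fuk, a fucose kinase gene (14.7), and Lima1, which encodes an actin-binding protein (14.4), and none of these was in the P7 list.

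The highest gained peaks outside promoters lay in an intron of Cpa6, a carboxypeptidase gene, on chromosome 1 at 10419993-10420284 (fold enrichment 18), intergenic near Lgals8 on chromosome 13 at 12566027-12566474 (16.8), and in introns of Gm11033 (16.4), 4922501L14Rik (16.3) and Ass1, the gene of argininosuccinate synthase (15.7). They stood at the 92.1st to 96.5th percentile of the longer P3 list, and 4 of the 5 were present at P7 and 4 at E18.5. At promoters the highest were Cox6b2, which encodes a cytochrome c oxidase subunit (14.7), Rilpl2 (14.5) and 0610031J06Rik (13.9), each present at P7.

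The strongest kept peaks outside promoters were intergenic sites on chromosome 1 (26.2 at P1 and 27.7 at P3), chromosome 17 (26.0 and 25.5, and 24.6 and 24.2) and chromosome 11 (27.6 and 23.0), and an intron of the helicase gene Ddx21 (24.2 and 24.9). Strong kept promoters were those of Mcm3, a subunit of the replicative helicase (31.7 and 26.6), and Spc25, a kinetochore component (29.5 and 26.1). Both were open in all 10 other lists.

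Some kept sites changed rank within lists that differ in length. The largest rises outside promoters were at intergenic sites 146677 bp from Rgs6, from percentile 5.26 at P1 to 95 at P3, and 5801 bp from Zfp869, from 6.54 to 93.8. Sites near Apobec3 (1.06 to 82.2), Thumpd3 (10.6 to 91.2) and Bbox1 (12.0 to 92.1) followed. Near Rgs6, Zfp869 and Apobec3 the P3 peak was the wider (at Rgs6 83571050-83572003, against 83571105-83571349 at P1). In all, 139 P3 peaks overlapped 2 or more P1 peaks. The part of peak width in these rises was not tested. The largest falls were in introns of Jph4, which encodes a junctophilin that ties the endoplasmic reticulum to the plasma membrane (78.7 to 2.81), and of Ank3, the gene of ankyrin-G at the axon initial segment (78.1 to 2.81). A site 3139 bp from Igf2bp3, which encodes an mRNA-binding protein of developing tissue, fell from 78.1 to 7.96. Introns of Hivep3 (71.6 to 4.33) and Tnr, the extracellular matrix gene tenascin-R (76.4 to 9.28), came next. The sites in Ank3 and near Igf2bp3 were present at E18.5 and in no later Cux2 list but P1 and P3.

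At promoters, most protein-coding genes had the same state at both ages. Any annotated TSS of a gene counted, including one inside the gene. Several promoter peaks named below lie at such inner TSSs, among them those of Cux2, Cacna1a, Sema3a, Mef2c, Nlgn3, Dlgap1, Nr4a2 and Pax6. Of 22208 genes, 8639 (38.9%) had a promoter peak at P1 and P3, and 12087 (54.4%) at neither. A promoter peak at P3 only was found for 1100 genes (4.95% of all genes), and at P1 only for 382 (1.72%). With lists of equal length the order turned around, to 545 genes at P3 only and 875 at P1 only. Of the 1100 promoters 555 were no longer in the P3 list, and 493 promoters open at both ages became P1 only. Only the P3 list was shortened there. Counts at P1 only and of lost peaks could thus only rise, and counts at P3 only and of gained peaks only fall. The same applies to the gene lists below. The order of the full lists held when each list was cut at its median fold enrichment, with 920 genes at P3 only and 607 at P1 only. It also held under a common −log10 p, with 1201 and 345. Both settings left the P3 list the longer, with 14653 against 10883 peaks and 29298 against 20989. They therefore cannot separate this order from list length. Of the 1100 genes, 50.2% had a promoter peak at P7 and 67.5% at E18.5, and of the 382 genes 31.9% and 74.6%. No other list had a promoter peak of 109 of the 1100 and 40 of the 382 genes.

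Changed peaks were assigned to the nearest protein-coding TSS within 100 kb. At least 1 gained peak was assigned to 5372 genes (24.2% of all genes), and at least 1 lost peak to 1833 genes (8.25%). In all, 7567 gained and 2064 lost peaks were assigned, a ratio of 3.67. In the gene lists described next, 37 genes had a promoter peak at P3 only, of which 17 were still P3 only at equal length and 20 were then in neither list.

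The genes with most gained peaks were Dlg2, Pde4d, Phactr1, Cntnap2 and Elmo1, all long genes of 458 to 2241 kb against a median of 15.5 kb over all genes. Dlg2, which encodes a scaffold of the postsynaptic density, had 10 peaks at P1 and 25 at P3, of which 15 were gained and none was lost. Of these 15, 10 were present at P7, 6 at E18.5 and 8 in a Tle4 list. Pde4d, the gene of a cAMP phosphodiesterase, rose from 12 to 24 peaks with 12 gained, of which 6 were present at P7 and 7 at E18.5. Phactr1, which encodes a regulator of actin and phosphatase activity, had 11 gained peaks and 1 lost, and 7 of the gained peaks were present at P7. Cntnap2, a neurexin-family adhesion gene, gained 8 peaks, with the strongest in an intron at 46945966-46946598 of chromosome 6 (fold enrichment 13.0) and present at P7, P21 and P48. Elmo1, which acts in Rac activation and cell motility, gained 7 peaks, of which 6 were present at P7. In lists of equal length the gained peaks were 8 for Dlg2, 5 for Pde4d, 6 for Phactr1, 3 for Cntnap2 and 4 for Elmo1, and the lost peaks 0, 2, 4, 1 and 0.

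The genes with most lost peaks were Abr, 4930506M07Rik, Bach2, Celf2 and Dlgap2. Abr, which encodes a regulator of small GTPases, went from 12 peaks to 7 with 5 lost and none gained, and 4 of the 5 were present at E18.5 and none at P7. Celf2, an RNA-binding regulator of splicing, lost 4 peaks and gained 1, and all 4 lost peaks were present at E18.5 and in no later Cux2 list. Bach2, the gene of a leucine zipper transcription factor, and Dlgap2, a postsynaptic scaffold gene, each lost 4 and gained 4 peaks and held 8 and 11 peaks at both ages. In 4930506M07Rik 4 peaks were lost and 1 was gained.

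Among the 1024 gained peaks present at all later ages and absent at E18.5, a subset chosen after the values had been seen, the highest number per gene was 3, shared by several genes, among them 2010111I01Rik, Chn2, Dlg2, Elmo1, Kcnt2 and Phactr1. Chn2 encodes a Rac GTPase-activating protein, and Kcnt2 a sodium-activated potassium channel. Among the 1001 lost peaks present at E18.5 and in no later Cux2 list, Celf2 had 4, and 4930485B16Rik and Cadps, which acts in the priming of dense-core vesicles, had 3 each.

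The genes of upper-layer identity mixed both directions at their promoters. Of 16 genes, 8 had a promoter peak at both ages and 4 at neither. At P1 only there were 3 (18.8%, with 1.72% of all genes) and at P3 only 1 (6.25%, with 4.95%), and at equal length 3 and 1. In the full lists 15 peaks were gained and 5 lost, and at equal length 7 and 8. Cux2 itself, the gene whose locus drives the Cre, had a promoter peak at P1 (fold enrichment 9.23, −log10 p 19.6, chromosome 5 at 122374471-122374795) and none at P3. That peak lies at an annotated TSS inside the gene, which spans 122308396-122500111 on the minus strand. The same site was open at E18.5 and in no other list. At any of its TSSs, Cux2 also had a promoter peak at P21 and P48 and none at P7. Cux2 gained 2 other peaks, in its own intron (8.44) and 1555 bp upstream of its first base, in an intron of Gm15637 (5.70). The second lay outside the promoter limit of 1 kb and was also in the E18.5 and P7 lists. Cux1, its relative, had a P1 promoter peak of 7.62 and none at P3, with 2 peaks lost and 2 gained. Rasgrf2, a Ras exchange factor gene of upper layers, had 7.52 at P1 and none at P3. Mef2c, the gene of an activity-dependent transcription factor, was closed at P1 and had a P3 promoter peak of fold enrichment 5.53 (−log10 p 22.2), with 3 peaks gained and none lost. Rorb, a layer 4 and sensory-area regulator, kept its promoter peak (10.9 at P1 and 10.1 at P3), as did Pou3f1 (11.6 and 8.53) and Pou3f2 (9.55 and 6.67), POU factors of upper layers.

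Of the 12 genes of deep-layer identity, 5 had a promoter peak at both ages and 6 at neither. Another 1 was at P3 only (8.33%, with 4.95% of all genes) and none at P1 only. At equal length 3 were P1 only and none P3 only. In the full lists 6 peaks were gained and 3 lost, and at equal length 1 and 7. Tle4 kept a strong promoter peak (17.1 and 16.2) and 4 peaks at each age, without a lost or gained one. Bcl11b, which specifies subcerebral neurons, had 10.8 at P1 and 6.91 at P3, and its P3 promoter peak was not in the list of equal length. Foxp2 had no promoter peak at P1 and one of 6.29 at P3, and was in neither list at equal length. Tbr1 and Fezf2, regulators of deep-layer fate, had no promoter peak at either age. The promoters open in these cells thus included genes of both layer identities.

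In the list of immature neuron genes, 12 of 19 had a promoter peak at both ages. At P3 only there were 3 (15.8%, with 4.95% of all genes) and at P1 only 1 (5.26%, with 1.72%), and at equal length 2 and 2. Sox4 (11.2 at P1 and 9.43 at P3) and Sox11 (9.91 and 9.39), SOX factors of newborn neurons, were open at both ages, and Sox4 gained 2 distal peaks. Marcksl1 (9.86), Tubb2a, a tubulin gene of growing neurites (7.90), and Bhlhe22 (4.54) had a promoter peak at P3 only, and at equal length Bhlhe22 was in neither list. Neurod2, a helix-loop-helix factor gene, had 8.94 at P1 and none at P3, yet its promoter was open at E18.5, P7 and P48. Apc2, which acts on the cytoskeleton of migrating neurons, was open at both ages (14.3 and 9.95).

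Axon guidance genes held promoter changes of both signs. Of 49 genes, 16 had a promoter peak at both ages, 6 at P3 only (12.2%, with 4.95% of all genes) and 3 at P1 only (6.12%, with 1.72%), and at equal length 3 and 5. Sema3a, a secreted repellent, had no promoter peak at P1 and one of 5.54 at P3, and gained 4 peaks, all present at P7. Sema3c (7.80), Sema3e (7.70), the plexin receptor gene Plxna3 (7.87) and the ephrin receptor gene Epha6 (7.03) were likewise open at P3 only, and at equal length Sema3e and Plxna3 were in neither list. Unc5a, a netrin receptor gene (8.55), Nrp1, a co-receptor of semaphorins (7.80), and Slit1, a midline repellent gene (8.22), were open at P1 only. Slit1 nonetheless gained 6 intronic peaks, the most of the list, and went from 2 to 7 peaks. At least 1 gained peak was assigned to 28 of the 49 genes (57.1%, with 24.2% of all genes). At least 1 lost peak was assigned to 9 (18.4%, with 8.25%).

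Over all genes the full lists gave 3.67 gained peaks for each lost one. Of 43 synaptic adhesion genes, 30 had a gained peak (69.8%, with 24.2% of all genes) and 12 a lost one (27.9%, with 8.25%). The 43 genes had 75 gained and 13 lost peaks in all (a ratio of 5.77), and at equal length 37 and 23. Their median length was 195 kb. Cntn4 gained 5 peaks without a lost one, and Nrxn3 gained 4 and lost 2. The promoters of Cntn6 (9.30), Nlgn3 (7.65), Slitrk1 (7.58), Cdh6 (7.01) and Lrrtm3 (6.79) were open at P3 only, and that of Cadm4 (7.27) at P1 only. At equal length Nlgn3 and Lrrtm3 were in neither list, and the counts turned from 5 at P3 only and 1 at P1 only to 3 and 4. Cntn6 was open in all 3 later Cux2 lists and closed at E18.5.

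Of 25 genes of presynaptic release, 16 had a promoter peak at both ages, 1 at P3 only (4.0%, with 4.95% of all genes) and none at P1 only. Vamp2, the vesicle SNARE gene, was the P3-only case (7.83). At equal length Vamp2 was in neither list, and 1 gene was P1 only and none P3 only. Rims1 and Rims2, genes of active zone scaffolds, gained 6 and 5 peaks, and Syt1, the calcium sensor of release, gained 4, all without a loss. Syp, a synaptic vesicle membrane protein gene, kept its promoter peak (8.57 and 10.0) and its 3 peaks. The 25 genes had 30 gained and 6 lost peaks (a ratio of 5.0), and at equal length 11 and 10.

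Of 39 genes of glutamate receptors and the postsynaptic density, 20 were open at both ages, 5 at P3 only (12.8%, with 4.95% of all genes) and none at P1 only. They included the metabotropic receptor gene Grm7 (9.18), the scaffold gene Dlgap1 (8.22), the NMDA receptor gene Grin2a (6.34) and the AMPA receptor gene Gria2 (4.67). At equal length Grm7 was still P3 only, and Dlgap1, Grin2a and Gria2 were then in neither list. At equal length the list had 1 gene at P3 only and 1 at P1 only. In the full lists 47 peaks were gained and 16 lost (a ratio of 2.94, below that of all genes), and at equal length 17 and 20. Of 18 genes of GABA receptors and chloride transport, 2 were open at P3 only (11.1%, with 4.95% of all genes), and neither was in the lists of equal length. Gabra2 (5.90), which encodes a GABA-A receptor subunit, was among them. Another 7 of the 18 were open at both ages and 9 at neither, with 15 gained and 4 lost peaks (a ratio of 3.75), and at equal length 9 and 8.

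Ion channel genes were spread over both directions. Of 40 potassium channel genes, 6 were open at P3 only (15.0%, with 4.95% of all genes) and 3 at P1 only (7.50%, with 1.72%), and at equal length the order turned around, to 2 and 6. Kcnt2 (7.65), Kcnk3 (7.25), Kcna4 (6.82), Kcnk2 (6.71) and Kcnc2 (6.63) were among those open at P3 only, and Kcnh7 (8.62) and Kcnk10 (6.51) among those open at P1 only. At equal length Kcnk3, Kcna4 and Kcnk2 were in neither list. Kcnt2 also gained 5 intronic peaks. Of 23 sodium and calcium channel genes, Scn1a (7.76) and Scn2b (7.65) were open at P3 only (8.70%, with 4.95% of all genes). Cacna1a (7.84) and Cacnb1 (7.35) were open at P1 only (8.70%, with 1.72%). The Cacna1a peak lies at an annotated TSS near the downstream end of the gene, far from its start. The same site was open in Cux2 CPNs at E18.5, P7 and P48. At equal length Scn1a and Scn2b were in neither list, with 3 genes at P1 only and none at P3 only. In this list 11 genes had a lost peak (47.8%, with 8.25% of all genes) and 12 a gained one (52.2%, with 24.2%). In the full lists 24 peaks were gained and 12 lost, and at equal length 7 and 18. Cacnb2, a calcium channel subunit gene, gained 5 peaks.

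Activity-regulated genes were mostly open at both ages. Of 18 genes, 16 had a promoter peak at both (88.9%, with 38.9% of all genes). At P3 only (5.56%, with 4.95%) there was Nr4a2, a nuclear receptor gene (6.66). The last also gained a distal peak of fold enrichment 11.4, which was present at E18.5 and P7. Egr3 was open at both ages (13.8 and 10.0), lost 1 peak and gained 1. Nefm, the gene of a neurofilament subunit, had no promoter peak at either age and lost its only assigned peak, 89317 bp from the TSS.

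The shares with a gained or lost peak lay above those of all genes in every list of neuronal genes. Lists of other cells went both ways. Gained peaks were at 45.5% of astrocyte and radial glia genes, 42.9% of endothelial genes and 3 of 5 progenitor genes. They were at 11.1% of oligodendrocyte lineage and 16.7% of microglia genes, below the 24.2% of all genes. Lost peaks were at 18.2% of astrocyte and radial glia genes and 11.1% of oligodendrocyte lineage genes. No progenitor, microglia or endothelial gene had a lost peak, with 8.25% of all genes. Several of the neuronal lists hold long genes (median lengths of 118 to 195 kb in the receptor, adhesion and guidance lists, with 15.5 kb over all genes). The part of gene length in these shares was not tested.

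**Figure D4:**
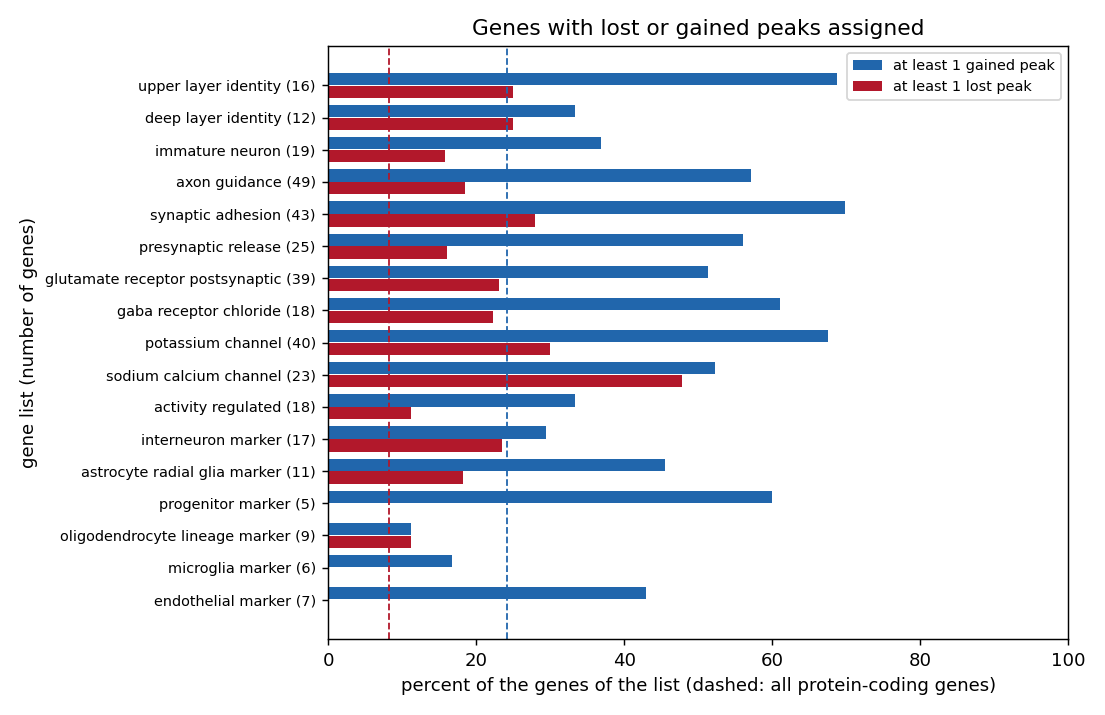
Percent of the genes of each list with at least 1 gained (blue) or lost (red) peak assigned within 100 kb, with dashed lines for all protein-coding genes (24.2% and 8.25%). The bars of synaptic adhesion genes reach 69.8% and 27.9%, and sodium and calcium channel genes have the longest red bar, 47.8%.

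Most promoters of genes that mark other cell types had no peak at either age, as did 54.4% of all genes. Of 17 interneuron genes, 11 had a promoter peak at neither age and 4 at both (Dlx5, Calb2, Prox1 and Adarb2). Another 2, Dlx6 (6.03) and Lhx6 (6.69), had one at P3 only (11.8%, with 4.95% of all genes). Both were also P3 only at equal length. The defining GABA synthesis and transport genes Gad1, Gad2 and Slc32a1 had no promoter peak at either age. The Dlx6 peak lies in its antisense neighbour Dlx6os1. Npy went from 0 to 4 assigned peaks and Dlx6 from 0 to 3, the largest rises of the list. Sst went from 2 to 1, and Dlx5 and Prox1 from 3 to 2. The 17 genes had 11 gained and 4 lost peaks (a ratio of 2.75, below the 3.67 of all genes), and at equal length 7 and 4. Of 5 progenitor genes, Top2a was open at both ages, and Mki67 (9.18), a proliferation marker, and Sox2 (7.85) at P3 only, and both were in the E18.5 list. Of 11 genes of astrocytes and radial glia, 7 were open at neither age, and Gfap, Sox9 and Vim at both. Pax6 (8.73) was open at P1 only (9.09% of the list, with 1.72% of all genes). Of 9 genes of the oligodendrocyte lineage, 8 were open at neither age, and Olig1 (8.35) at P1 only (11.1%, with 1.72% of all genes). Of 6 microglia genes none was open at either age. Of 7 endothelial genes the glucose transporter gene Slc2a1 was open at both. The part of other cell types in the lost and gained sets was not tested.

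The motif content of changed sites was compared outside promoters, in the 100 bases on each side of the summit. The median GC content was 44.8% for kept P1, 45.3% for lost and 42.8% for gained peaks. The E-box CAGCTG was found in 14.7% of lost (13.3 to 16.3%), 17.6% of gained (16.8 to 18.4%) and 16.4% of kept windows (15.7 to 17.1%), and in 16.6% of all windows of both lists. Gained windows held it more often than lost ones in each of 4 ranges of GC content, from 11.9% against 7.33% in the range of lowest GC to 22.6% against 19.5% in the highest. The E-box CAGATG, in contrast, was found in 25.3% of lost, 26.0% of gained and 25.2% of kept windows.

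The motif of MEF2, a family of activity-dependent factors, was found in 4.67% of lost (3.86 to 5.64%) and 7.03% of gained windows (6.51 to 7.58%), with 6.17% in kept windows and 6.31% in all. Gained windows again lay above lost ones in all 4 ranges of GC, by 12.0% against 8.51% at lowest GC and 2.04% against 1.98% at highest GC. The SOX motif ACAATGG went the other way, with 2.68% of lost (2.08 to 3.45%), 1.71% of gained (1.46 to 2.00%), 2.32% of kept and 2.1% of all windows, and gained windows lay above lost ones in 1 of the 4 ranges. The AP-1 motif TGANTCA was found in 6.19% of lost, 7.58% of gained, 6.88% of kept and 7.04% of all windows. The RFX motif was found in 1.66% of lost, 1.21% of gained and 2.20% of kept windows, and the POU octamer ATGCAAAT in 3.33%, 3.91% and 4.71%, the highest value being that of kept windows for both. The GC box GGGCGG was found in 3.46% of gained windows (3.10 to 3.86%), 5.59% of lost and 6.44% of kept windows, and gained windows lay above lost ones in 2 of the 4 ranges of GC. The homeodomain TAATTA was found in 7.62% of lost, 8.66% of gained and 7.59% of kept windows, and CTCF in 3.84%, 4.28% and 4.42%. The other motifs were found in under 1% of windows of each set. In lost, gained and kept windows they were the CRE TGACGTCA with 0.37%, 0.521% and 0.657%, NRF1 (GCGCATGC) with 0.647%, 0.499% and 0.845%, and the ROR half-site TAGGTCA with 0.647%, 0.907% and 0.676%. EGR (GCGNGGGCG) had 0.508%, 0.249% and 0.582%, ETS (CCGGAAGT) 0.37%, 0.125% and 0.488%, and the CUX site ATCGAT 0.37%, 0.442% and 0.235%. The T-box AGGTGTGA had 0.277%, 0.317% and 0.207%, and the full NFI site 0.139%, 0.102% and 0.103%. Both strands were searched, and no difference was tested.

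**Figure D5:**
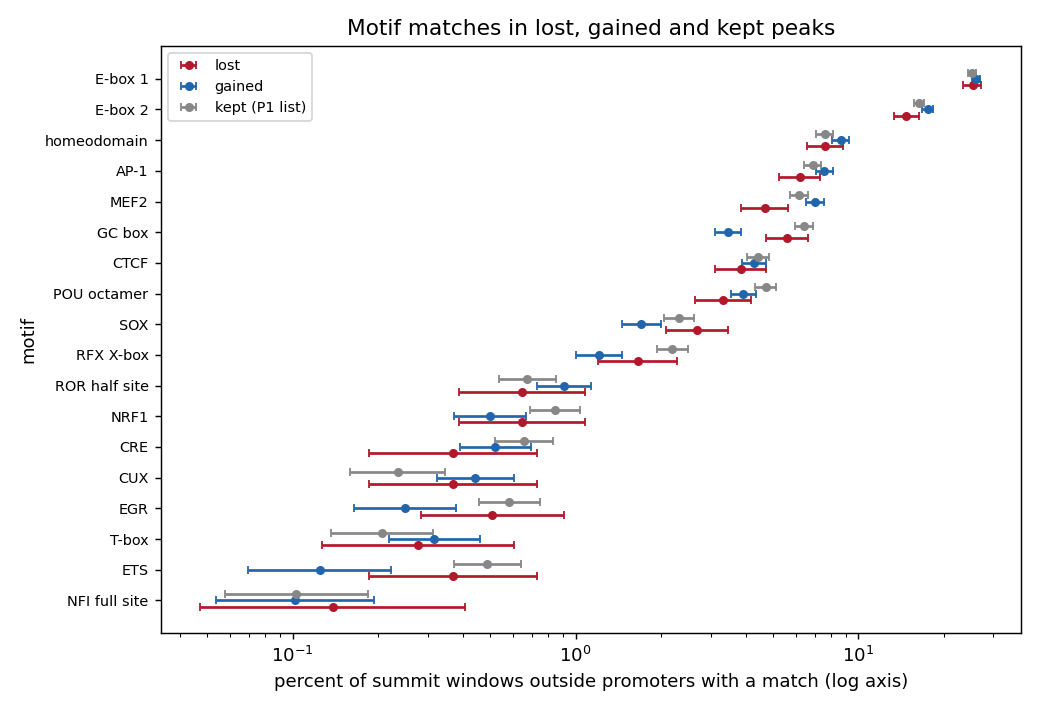
Percent of summit windows outside promoters that match each of 18 motifs (log axis), for lost, gained and kept peaks, with 95% Wilson intervals; E-box 1 is CAGATG and E-box 2 is CAGCTG. The intervals of lost and gained peaks are apart for E-box 2, MEF2, SOX and the GC box, and overlap for E-box 1 and CTCF.

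By chromosome, the X chromosome had the largest relative gain. Its peaks rose from 500 at P1 to 789 at P3, 1.58 times, against 1.19 to 1.46 times on the 19 autosomes. On X, 42.3% of P3 peaks were gained (38.9 to 45.8%), with 27.3 to 39.2% on the autosomes, and 8.60% of P1 peaks were lost, with 8.65 to 14.9% on the autosomes. The interval of X overlapped that of the highest autosome, chromosome 6 (36.9 to 41.5%). Beside this, the peaks on chromosome Y numbered 4 at P1 and 0 at P3. By the study's methods each library pooled male and female animals in equal number. The part of sex in the X values was not tested.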

How the data were processed

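ATAC-seq peaks were analysed for Cux2 neurons at P1 and P3, with the other 10 lists as reference. The authors' reads were mapped to NCBI37 (mm9) by Bowtie2 and cleared of duplicates by Picard. MACS2 peaks came from the pooled replicates and had to pass an IDR (reproducibility) limit over 2 replicates. A shift of read ends is not given in the sources used here. The deposited lists hold for each peak a fold enrichment, the linear ratio of the summit over local background. They also hold a deposited −log10 p, not adjusted, which was used to order peaks. The deposited score of each peak line is near 10 times the −log10 p and entered no comparison. Read depth per library is unknown from these lists.

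Peaks on chromosomes 1 to 19 and X were intersected at 1 bp. A promoter peak lay within 1 kb of any of 86803 annotated TSSs, other peaks were placed by their summit, and peaks were assigned to the nearest TSS of 22208 protein-coding genes within 100 kb. Coordinates are 1-based, on mm9. Motifs were searched on both strands of summit windows, and the reference letters carry no repeat mask, so repeats were not left out. Shares have 95% Wilson intervals for counting error only. No test was run, since each age has 1 list. Computations used Python 3.11.15 with numpy 2.4.6, pandas 2.3.3, scipy 1.17.1 and statsmodels 0.14.6, and the overlap and assignment steps were tested on simulated peaks.

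The members, the 17 gene lists (354 genes, all matched) and the 18 motifs were chosen with earlier results of these data known. Named were the peaks of highest fold enrichment in each set (5 outside promoters, 3 at promoters), the kept peaks of largest rank change (5 in each direction), the genes with most gained or lost peaks (5 each), the members of each list whose promoter was in 1 list only (up to 6 per direction) or with most changed peaks (up to 3 per direction), and a few fixed genes. Genes of chromosome 18 were not named, and some other genes that met the rule are not reported here. Genes named beyond these, such as Rorb and marker genes with the same promoter state at both ages, were chosen after their values were seen. Alternatives were lists of equal length, a common −log10 p, a reciprocal overlap, a summit distance, merged peaks, a fold enrichment limit, a promoter distance of 500 bp and protein-coding TSSs only.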

Additional observations from a re-analysis of the deposited data

Results flagged for a closer look

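Peaks outside the chromosomes compared were few. The P1 list held 7 peaks on the mitochondrial genome and 4 on chromosome Y, and the P3 list held 7 on the mitochondrial genome, each above the limit of 3 that a count of 0 allows. The P3 list held 0 peaks on chromosome Y. These peaks entered no comparison.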

How the results depend on the processing

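No paired analysis was possible because each list pools its replicates and holds no value per replicate, and for the same reason no replicate could be left out. Of 80 values recomputed under the alternatives, 40 moved by more than their counting interval or by more than 1.5 times for counts, and 40 did not. With lists of equal length 4907 peaks were lost (22.6%) and 5012 gained (23.0%), 2 shares that equal lengths bring together by construction, promoters made up 22.2% of lost and 46.6% of kept peaks, 49.1% of gained peaks were present at E18.5 and 39.1% of lost peaks at P7, and the promoter counts became 875 genes at P1 only and 545 at P3 only. With a common −log10 p of 13.8, 11.4% were lost and 36.8% gained, and 44.5% of gained peaks were present at E18.5. With a reciprocal overlap of 50%, 4502 peaks were lost (20.7%) and 41.1% gained, promoter shares were 27.3% of lost and 17.9% of gained peaks, and 40.1% of gained peaks were present at E18.5. With summits within 250 bp, 14.6% were lost and 36.6% gained, promoter shares were 24.7% and 15.9%, and 41.9% of gained peaks were present at E18.5. With each list cut at its median fold enrichment before the sets were called, 17.2% were lost and 38.5% gained (5646 peaks). A promoter peak was at P1 only for 607 genes and at P3 only for 920. Of gained peaks 66.4% were present at E18.5, and of lost peaks 66.7% at P7. The kept peaks numbered 9016, and promoter shares were 33.2% of lost, 17.3% of gained and 57.9% of kept peaks. With a promoter distance of 500 bp the shares were 16.8%, 12.3% and 42.4%, and with protein-coding TSSs only 17.3%, 13.0% and 42.5%. Merging touching peaks left every value as it was, since no peaks touched. Under each of these alternatives the promoter shares of lost and gained peaks were below that of kept peaks. Apart from fewer peaks entering at equal length and under the limits, the cause of these moves was not tested.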
